A study of Mus musculus with 17 samples.

Results

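The nuclear-encoded subunits of the oxidative phosphorylation complexes were described across total RNA-Seq libraries of cultured mouse lung cells. Members were the genes of the deposited count table whose symbols start with Nduf followed by a, b, c, s or v and a digit, with Sdh followed by a, b, c or d alone, with Uqcr, with Cox followed by a digit from 4 to 8, or with Atp5, leaving out symbols with -ps and requiring more than 10 CPM (counts scaled to a common library size) in at least 2 libraries. Of 55421 genes in the table, 10481 passed that level and 97 symbols matched, of which 8 carried -ps and 12 were below the level, leaving 77 members. They comprised 35 genes of complex I, 4 of complex II, 8 of complex III, 13 of complex IV and 17 of complex V. Ndufa4 and Ndufa4l2 were placed with complex IV, where the Ndufa4 protein is now assigned. A further symbol, Ndufb1-ps, ran from 36.1 to 97.1 CPM and stayed out because of its name.

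All mice carried Ephb4f/f; Col1a2-CreERT2, a floxed Ephb4 gene with a tamoxifen-inducible Cre driven by the Col1a2 promoter. At 4 weeks of age they received 4-hydroxytamoxifen in an oil vehicle at 1 mg per day for 5 days (Ephb4 CKO) or the corn oil vehicle alone (Ephb4 control), and at 6 weeks bleomycin at 1.2 U/kg or PBS was instilled into the lungs. After 14 days lung cells were grown to passage 1 and RNA was sequenced, giving 4 control PBS, 4 control bleomycin, 5 CKO PBS and 4 CKO bleomycin libraries. The controls therefore carried the same alleles and Cre as the CKO mice and differed by 4-hydroxytamoxifen, which was given to the CKO mice only and so cannot be told apart from the deletion. Deletion was limited to cells in which the Col1a2 promoter was active, and the libraries describe cells after culture and not whole lung. Each library has a title of its own, made of a number and a sex letter, and 2 of the numbers occur in 2 libraries each, of different sex, genotype and instillation. The labels do not say what the numbers mark, and the p-values below measure the spread between these libraries.

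Oxidative phosphorylation is carried out in the inner mitochondrial membrane. Complex I (NADH dehydrogenase) and complex II (succinate dehydrogenase) pass electrons to ubiquinone, complex III passes them to cytochrome c, complex IV (cytochrome c oxidase) reduces oxygen, and complex V (ATP synthase) uses the proton gradient to make ATP. Mitochondrial DNA encodes a few core subunits of complexes I, III, IV and V, whereas every complex II subunit and most other subunits come from nuclear genes whose products are imported.

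Total counts ran from 66540022 to 120554468 per library. Ephb4 averaged 16.0 CPM in control PBS, 38.5 in control bleomycin, 9.66 in CKO PBS and 9.64 in CKO bleomycin libraries, and the range in control PBS, from 2.32 to 33.5 CPM, overlapped both CKO groups. After bleomycin Ephb4 ran from 13.2 to 65.1 CPM in control and from 4.93 to 14.0 CPM in CKO libraries. The labels call the cells primary fibroblasts, but all 19 macrophage markers passed the filter and their summed level ran from 10230 to 45900 CPM in control PBS, 1279 to 21020 in control bleomycin, 23350 to 42680 in CKO PBS and 23850 to 43520 in CKO bleomycin libraries. The summed level of 14 fibroblast markers ran from 13.3 to 7140 CPM in control PBS, 5104 to 11390 in control bleomycin, 29.8 to 1883 in CKO PBS and 15.0 to 1423 in CKO bleomycin libraries, with Postn and Fbln1 at 0 in their lowest library. Over all libraries epithelial markers summed to 31.0 to 2621 CPM and endothelial markers to 52.9 to 320 CPM. Several libraries thus went against the fibroblast label, and 3 libraries went against the sex recorded for their mouse. These were control bleomycin library 2 and CKO bleomycin libraries 1 and 2, all of them bleomycin libraries. Whether their genotype labels hold was not tested. Where sex is a covariate below, it is the recorded sex. In bulk RNA, fewer cells of a type and less RNA per cell cannot be told apart. Marker levels differed between the same groups that are compared below. The marker values are therefore given beside the results, and their part in them was not tested. Some fits below hold a marker level as a covariate. The fibroblast marker level (mean log2 CPM) ran from 7.27 to 8.00 in control bleomycin libraries. That was above control PBS (-1.09 to 7.14) and CKO bleomycin libraries (-0.70 to 6.18). A fit with that covariate therefore cannot tell the marker level apart from these groups.

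The Ndufa4 and Ndufa4l2 coding sequences are shown because Ndufa4l2 was the only member near 0 in many libraries while its paralog was not, and the sequences show how far reads of the pair could be confused. Ndufa4 is at chr6:11900535-11907365 on the minus strand and Ndufa4l2 at chr10:127514982-127516499 on the plus strand of GRCm38, each with 4 coding exons; the sequences are the spliced coding sequences of the GENCODE M21 transcripts tagged as principal, 5′ to 3′, with capitals at positions identical in a global alignment of the pair.
Ndufa4: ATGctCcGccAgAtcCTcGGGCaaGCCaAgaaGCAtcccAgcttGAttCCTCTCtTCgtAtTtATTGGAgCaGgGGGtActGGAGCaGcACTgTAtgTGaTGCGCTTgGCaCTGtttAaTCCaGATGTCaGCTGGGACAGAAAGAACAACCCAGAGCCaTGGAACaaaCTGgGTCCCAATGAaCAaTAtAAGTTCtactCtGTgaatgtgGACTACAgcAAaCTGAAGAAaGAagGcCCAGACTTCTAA
Ndufa4l2: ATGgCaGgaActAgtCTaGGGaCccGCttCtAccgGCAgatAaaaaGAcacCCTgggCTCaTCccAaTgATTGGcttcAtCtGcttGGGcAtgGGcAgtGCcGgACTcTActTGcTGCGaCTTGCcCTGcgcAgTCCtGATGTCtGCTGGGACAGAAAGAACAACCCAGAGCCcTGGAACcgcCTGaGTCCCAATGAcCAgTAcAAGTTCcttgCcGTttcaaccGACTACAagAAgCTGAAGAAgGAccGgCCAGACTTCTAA
The sequences held 249 and 264 bases and were identical at 172 of 267 aligned columns (64.4%). The longest run they shared was 28 bases, shorter than the 75-base reads, so no full-length read within these coding sequences can match both genes exactly.

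Per kb of transcript, the members were among the more highly expressed genes. The mean level over 17 libraries had a median of 72.2 CPM per kb over the members, against 10.4 CPM per kb over 10476 genes with a length. The median length was 0.745 kb over the members and 2.76 kb over those genes, so part of this gap comes from dividing by length. By complex the median level was 46.9 CPM per kb in complex I, 62.6 in complex II, 79.7 in complex III, 121 in complex IV and 110 in complex V. Atp5b, the catalytic beta subunit of ATP synthase, was highest at 361 CPM per kb, followed by Cox4i1 (291 CPM per kb), a structural subunit of complex IV, Cox6b1 (258 CPM per kb) and Atp5a1 (205 CPM per kb), the alpha subunit of ATP synthase. The lowest members were Ndufb2 at 7.31 and Ndufa4l2 at 9.33 CPM per kb. The length is the median over the protein-coding transcripts of the GENCODE basic set, or the merged exons for genes with none. This choice was made after merged exon lengths were seen to be longer. The length was 2.41 kb for Ndufb2 against a median of 0.782 kb in complex I.

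**Figure D1:**
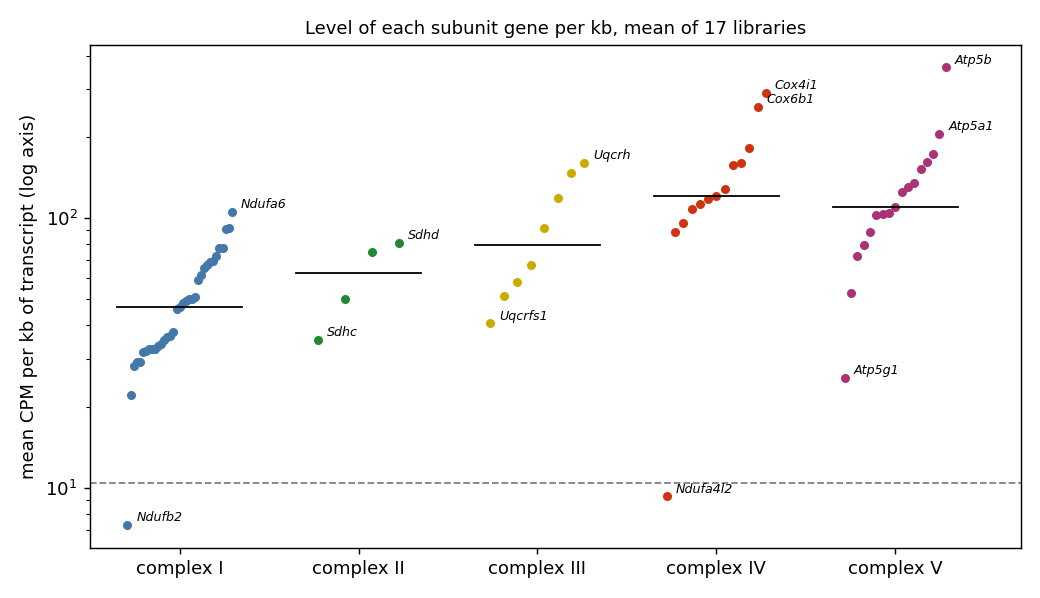
Mean CPM per kb over 17 libraries for each of the 77 subunit genes (log axis), grouped by complex; solid lines are the medians of the complexes and the dashed line is the median of all genes (10.4). Members of complexes IV and V sit highest, and Ndufb2 and Ndufa4l2 lie below the dashed line.

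The tissue-restricted isoforms of complex IV were at low levels or not counted. Cox4i2, the alternative form of Cox4i1 known from lung and hypoxia, did not exceed 2.11 CPM in any library, against a lowest value of 139 CPM for Cox4i1. The heart and skeletal muscle form Cox7a1 did not exceed 1.45 CPM, Cox6a2 5.96 CPM and the testis form Cox6b2 6.89 CPM, while Cox8b, Cox8c and Cox7b2 had no count in any library. The broadly expressed forms Cox6a1, Cox6b1, Cox7a2 and Cox8a had mean levels of 91.1, 125, 79.8 and 99.7 CPM. Striated muscle markers summed to at most 4.56 CPM in any library.

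The members varied little between libraries. The SD of log2 CPM over the 17 libraries had a median of 0.27 over the members and 0.44 over all genes tested, and 79.5% of all genes had a larger SD than the median member. Low spread was not particular to the members: the median was 0.25 over mitochondrial ribosomal proteins, 0.26 over cytosolic ribosomal proteins and 0.23 over proteasome subunits. It was 0.34 over assembly factors, 0.33 over citrate cycle genes and 0.60 over mitochondrially encoded subunits. Leaving out Ndufa4l2, the largest SD was 0.54, that of Ndufa4, and 41.0% of all genes exceeded it. For 76 members the highest library was at most 4.02 times the lowest, with Ndufa4 (4.02 times), Ndufa1 (3.87) and Cox7a2 (3.44) at the upper end.

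Most members were high or low in the same libraries. In control PBS library 4, 76 of 77 members were above their own median over the 17 libraries, with Ndufa4l2 the exception, and in CKO bleomycin library 4, 74 were above it, with Ndufa4l2, Ndufs8 and Ndufv3 the exceptions. At the other end stood control PBS library 3 with 4 members above their median, control bleomycin libraries 2 and 3 with 7 and 8, and CKO PBS library 2 with 11. High and low libraries occurred in the same group: the control PBS libraries had 22, 36, 4 and 76 members above their median, the control bleomycin libraries 54, 7, 8 and 17, the CKO PBS libraries 50, 11, 44, 59 and 59, and the CKO bleomycin libraries 17, 38, 40 and 74. The members' share of all counts ran from 0.45% to 0.837%. Both of the highest libraries had the lowest fibroblast marker levels, with a mean log2 CPM of -1.09 in control PBS library 4 and -0.70 in CKO bleomycin library 4, beside macrophage marker levels of 8.55 and 8.50 that were among the higher ones. Control PBS library 3 and the control bleomycin libraries had fibroblast marker levels from 7.14 to 8.00, the highest of the 17. Control bleomycin library 1 stood apart from that group, with the lowest macrophage level of any library (3.62) and 54 members above their median. The part of the marker levels in these differences was not tested. Control PBS library 4 was also the highest for assembly factors (mean log2 CPM 4.25), mitochondrial ribosomal proteins (4.68) and proteasome subunits (6.61). Control PBS library 3 was the lowest for the same lists (3.65, 4.01 and 5.965). The pattern was thus not particular to the members. Cytosolic ribosomal proteins and regulators of the complexes were highest in control bleomycin library 1 (8.53 and 4.43). Mitochondrially encoded subunits were highest in CKO PBS library 4 (8.825).

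**Figure D2:**
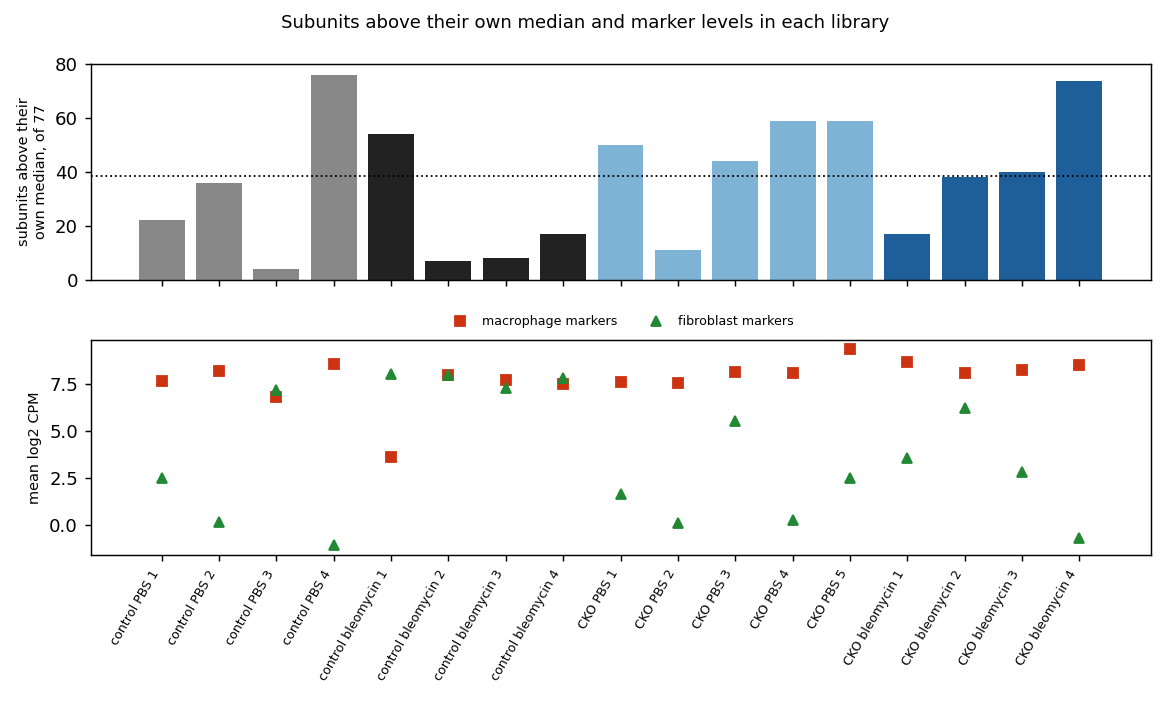
Number of the 77 subunits above their own median over 17 libraries (upper panel, bars; the dotted line marks an even split) and mean log2 CPM of the macrophage (squares) and fibroblast (triangles) markers (lower panel), by library. Control PBS library 4 (76) and CKO bleomycin library 4 (74) stand highest and have the lowest fibroblast marker levels.

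The mean log2 CPM over the 76 members other than Ndufa4l2 was 5.87 ± 0.35 (SD, n = 4) in control PBS, 5.74 ± 0.13 (n = 4) in control bleomycin, 5.90 ± 0.14 (n = 5) in CKO PBS and 5.93 ± 0.26 (n = 4) in CKO bleomycin libraries. All 4 ranges overlapped. For complex II, the control bleomycin libraries (6.22 to 6.32) lay below both the CKO bleomycin libraries (6.49 to 7.20) and the CKO PBS libraries (6.40 to 6.89), while the control PBS libraries ran from 6.16 to 7.27 and spanned all of these. No other complex had groups that did not overlap.

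**Figure D3:**
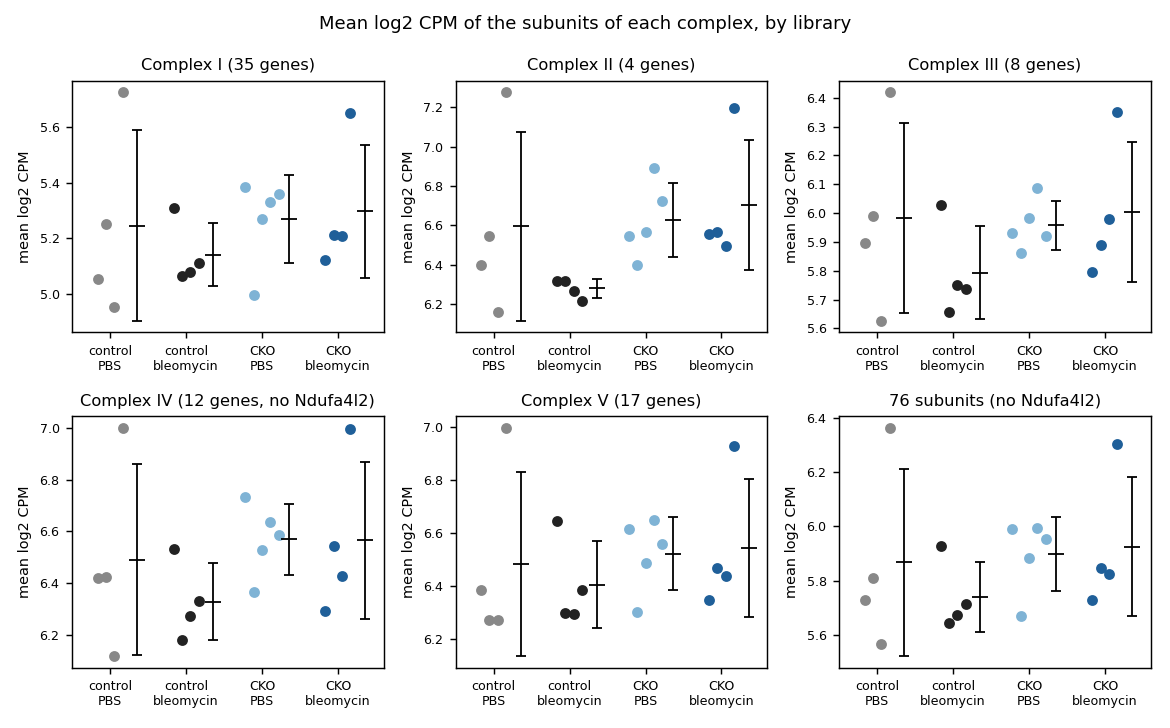
Mean log2 CPM of the subunits of each complex, 1 point per library, with the group mean ± SD beside the points. Ndufa4l2 is left out of complex IV and of the 76 subunits; the groups overlap in every panel except complex II, where the control bleomycin libraries (6.22 to 6.32) lie below both CKO groups.

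Bleomycin versus PBS in Ephb4 control mice addressed the response of lung cells to the fibrosis-inducing agent. By the quasi-likelihood test of edgeR, with p-values adjusted over all 10481 genes after Benjamini and Hochberg, no member reached an adjusted p of 0.05 (smallest adjusted p 0.320) and 0% of all genes did. DESeq2 and limma voom also called no member, although DESeq2 called 166 genes in all. At an unadjusted p under 0.05, edgeR had 0 members higher, where the share over all genes was 6.28%, and 2 lower, Uqcrb and Ndufb3, where the share was 7.98%, while DESeq2 had 0 and 3 and voom 1 and 1. The count of 2 lower was 0 without control PBS library 4, 10 without control PBS library 3 and 4 without control bleomycin library 1. Here and in the comparisons below, shares over all genes are those of the edgeR fit of 17 libraries with no covariate. Counts of members from other fits or tools have no such share beside them. The fitted log2 fold change was above 0 in 16 of 77 members, against 44.5% of all genes, and its median was -0.15 over the members and -0.06 over all genes. These counts hung on single libraries, and the counts from the changed fits have no share over all genes beside them. Without control PBS library 4 the count above 0 was 42 and the median 0.04, without control PBS library 1 the count was 10, and without control bleomycin library 1 it was 9; with the fibroblast marker level as a covariate it was 68. Scaled to library totals with no TMM factor, 53 members were above 0 and the median was 0.089, but the median of all genes was then 0.15, so that the members stayed below it. For the 76 members other than Ndufa4l2 the SE ran from 0.15 to 0.34, and in 73 of them the 95% interval (± 2.16 SE) lay within a 2-fold change in either direction.

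Uqcrb, which encodes the ubiquinone-binding protein of complex III, was at 88.0, 69.3, 69.3 and 126 CPM in control PBS libraries and at 60.9, 58.5, 65.2 and 63.1 CPM in control bleomycin libraries. Each bleomycin library was below each PBS library, which held for 1 member in this direction and for 3.2% of all genes, and for 0 members in the other direction, where 5.72% of all genes did so. The log2 fold change was -0.51 (SE 0.20, adjusted p 0.320 in edgeR), and it was -0.29 without control PBS library 4 and -0.10 with the fibroblast level as a covariate. Ndufb3, an accessory subunit of complex I, was at 20.1, 24.8, 18.5 and 33.7 CPM after PBS and 20.4, 15.5, 17.7 and 17.0 CPM after bleomycin, so that its groups overlapped, and its log2 fold change was -0.46 (SE 0.21, adjusted p 0.346 in edgeR), which was -0.26 without control PBS library 4 and -0.06 with the fibroblast covariate. The members with the smallest p among those with a positive value were Atp5o, the stalk subunit that confers oligomycin sensitivity (log2 fold change 0.25, SE 0.20, adjusted p 0.563 in edgeR), and Ndufs8, an iron-sulfur subunit of complex I (0.19, SE 0.17, adjusted p 0.603 in edgeR). Atp5o was at 137 CPM in control bleomycin library 1 and at 79.8 to 90.7 CPM in the other 3 libraries of that group, and its value without that library was 0.07.

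By complex, the members with a fitted value below 0 after bleomycin in control mice were 28 of 35 in complex I, 4 of 4 in complex II, 7 of 8 in complex III, 11 of 13 in complex IV and 11 of 17 in complex V, with median log2 fold changes of -0.15, -0.38, -0.21, -0.24 and -0.10. In complex II, the iron-sulfur subunit Sdhb was at 69.5, 96.8, 57.5 and 157 CPM after PBS and 75.8, 65.0, 66.9 and 59.0 CPM after bleomycin, and the flavoprotein Sdha at 132, 131, 108 and 227 CPM after PBS and 100, 143, 132 and 135 CPM after bleomycin. The groups overlapped for both, and control PBS library 4 was the high value in each. The catalytic ATP synthase pair had fitted values of -0.18 (Atp5a1, SE 0.23) and 0.08 (Atp5b, SE 0.22). In this comparison the fitted values of 12 of 12 fibroblast markers tested were above 0 (median 2.40) and those of 16 of 19 macrophage markers were below 0 (median -0.86). Values were also below 0 in 22 of 33 assembly factors (median -0.15) and 12 of 13 electron carrier and ubiquinone synthesis genes (-0.19). The same held for 53 of 78 mitochondrial ribosomal proteins (-0.12). On the other side, 67 of 79 cytosolic ribosomal proteins (0.16) and 5 of 9 regulators (0.03) were above 0.

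**Figure D4:**
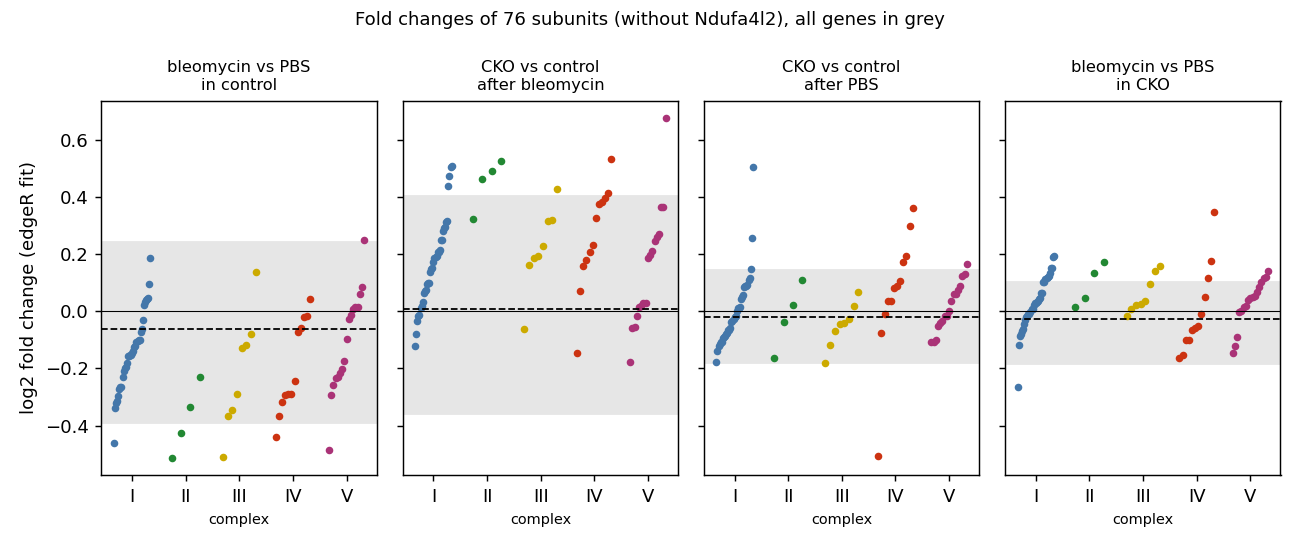
Fitted log2 fold changes (edgeR) of 76 subunits, 1 point per gene and grouped by complex, in the 4 pairwise comparisons; the dashed line is the median and the grey band the interquartile range of all 10481 genes. Ndufa4l2 is not drawn (0.61, -4.82, -1.88 and -2.33 from left to right), and in CKO versus control after bleomycin most members lie above the dashed line.

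Ephb4 CKO versus control after bleomycin asked how cells from bleomycin-treated lungs differed where Ephb4 had been targeted. It shares the control bleomycin libraries with the comparison above, so that their values enter both. Adjusted in the same way, no member (smallest adjusted p 0.220 in edgeR) and 0% of all genes passed. DESeq2 called 399 genes and limma voom 0, with no member among them. At an unadjusted p under 0.05, edgeR had 4 members higher in CKO libraries, Atp5e, Sdhd, Ndufb3 and Uqcrb, beside 11% of all genes, and 1 lower, Ndufa4l2, beside 9.18% of all genes, with the same counts of 4 and 1 in DESeq2 and voom. The count of 4 was not stable. It was 0 without CKO bleomycin library 4, 1 without control bleomycin library 3 or 4, and 13 without control PBS library 4. With only the groups compared in the fit the count was 12. With a covariate for the number series of the labels or for the fibroblast marker level it was 0. The shares over all genes at that p are from the fit without these changes, so these counts have none beside them. The count of 1 lower was 0 without any 1 of the CKO bleomycin libraries and without control bleomycin library 1 or 4. The groups did not overlap for 11 members that were higher in CKO libraries (beside 11% of all genes) and for 1 that was lower, Ndufa4l2, beside 12.2%. The fitted log2 fold change was above 0 in 65 of 77 members, against 50.7% of all genes, with a median of 0.19 over the members and 0.01 over all genes.

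The count above 0 ran from 47 to 71 when each library was left out in turn, and the median was 0.06 without CKO bleomycin library 4. With the fibroblast marker level as a covariate the count was 20 and the median -0.08, and with the macrophage marker level they were 71 and 0.20. With no TMM factor 30 members were above 0 with a median of -0.04, where the median of all genes was -0.217, so that the members stayed above it. All 12 fibroblast markers tested had fitted values below 0 in this comparison (median -3.08) and all 19 macrophage markers had values above 0 (median 1.14). Within libraries whose label numbers start with 12, which left 2 CKO and 4 control bleomycin libraries, 48 members were above 0 with a median of 0.07. By complex, 30 of 35 members were above 0 in complex I, 4 of 4 in complex II, 7 of 8 in complex III, 11 of 13 in complex IV and 13 of 17 in complex V, with median log2 fold changes of 0.17, 0.48, 0.21, 0.23 and 0.19. In 71 of the 76 members other than Ndufa4l2 the 95% interval lay within a 2-fold change.

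Atp5e, the epsilon subunit of ATP synthase, had the smallest p. It was at 37.5, 44.6, 41.0 and 42.1 CPM in control bleomycin libraries and at 54.5, 52.0, 62.3 and 95.3 CPM in CKO bleomycin libraries, a log2 fold change of 0.68 (SE 0.27, adjusted p 0.220 in edgeR). The CKO libraries were each above the control libraries, with CKO bleomycin library 4 highest, and the value without that library was 0.45. The PBS libraries of Atp5e, at 46.4, 56.4, 38.3 and 90.5 CPM in control and 68.0, 38.1, 64.7, 65.3 and 71.6 CPM in CKO mice, overlapped both bleomycin groups.

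Sdhd, a membrane anchor of succinate dehydrogenase, was at 88.0, 80.7, 74.1 and 72.6 CPM in control bleomycin and at 108, 99.1, 96.2 and 140 CPM in CKO bleomycin libraries, without overlap (log2 fold change 0.49, SE 0.20, adjusted p 0.223 in edgeR). Ndufb3 was at 18.9, 22.4, 23.3 and 33.4 CPM in CKO bleomycin libraries, which overlapped the 15.5 to 20.4 CPM of control bleomycin libraries (0.47, SE 0.21, adjusted p 0.233 in edgeR). Uqcrb was at 78.0, 74.5, 72.7 and 108 CPM in CKO bleomycin libraries, above the 58.5 to 65.2 CPM of control bleomycin libraries (0.43, SE 0.20, adjusted p 0.245 in edgeR). The other members whose groups did not overlap were Ndufa13, Ndufb4, Ndufb7, Sdhb, Cox4i1, Cox6b1, Cox7b and Atp5l, with log2 fold changes from 0.31 to 0.53. With the fibroblast level as a covariate, the fitted values of Atp5e, Sdhd, Ndufb3 and Uqcrb were 0.22, 0.14, 0.14 and 0.08. Without CKO bleomycin library 4, those of Sdhd, Ndufb3 and Uqcrb were 0.36, 0.29 and 0.28. Beside Ndufa4l2, the negative value with the smallest p was that of Atp5o (-0.18, SE 0.20, adjusted p 0.607 in edgeR), which was 0.00 without control bleomycin library 1 and 0.02 with the macrophage level as a covariate.

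Ndufa4l2, a paralog of Ndufa4 known as a target of hypoxia-inducible factors, varied most between libraries, with an SD of 3.47 in log2 CPM. It was at 29.1, 14.8, 12.9 and 20.6 CPM in control bleomycin libraries and at 0.155, 1.35, 1.16 and 0.0705 CPM in CKO bleomycin libraries. These groups were far apart, yet the PBS libraries held both levels: 1.07, 0.315, 49.2 and 0.0901 CPM in control mice and 0.914, 0.102, 16.0, 0 and 0.223 CPM in CKO mice. The log2 fold change of CKO against control after bleomycin was -4.82 (SE 2.14, adjusted p 0.233 in edgeR). The 6 libraries above 10 CPM were the 4 control bleomycin libraries, control PBS library 3 and CKO PBS library 3, and their fibroblast marker levels, from 5.51 to 8.00 mean log2 CPM, were 6 of the 7 highest; CKO bleomycin library 2 had a level of 6.18 and 1.35 CPM of Ndufa4l2. With the fibroblast level as a covariate the fitted log2 fold change was 0.09. After PBS the value was -1.88 (SE 1.75) for CKO against control, and for bleomycin against PBS it was 0.61 (SE 1.83) in control and -2.33 (SE 1.87) in CKO mice, the last of which became 1.11 without CKO PBS library 3.

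Ndufa4, the paralog that is part of assembled cytochrome c oxidase, did not follow that pattern. It was at 62.0, 48.9, 51.2 and 72.2 CPM in control PBS, 74.0, 43.1, 50.9 and 63.9 in control bleomycin, 20.2, 57.9, 45.2, 54.8 and 28.0 in CKO PBS and 28.1, 56.4, 43.9 and 81.2 CPM in CKO bleomycin libraries. All groups overlapped, and the 3 lowest libraries, CKO PBS libraries 1 and 5 and CKO bleomycin library 1, were from CKO mice. Its log2 fold change after bleomycin was -0.15 (SE 0.34, adjusted p 0.814 in edgeR).

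**Figure D5:**
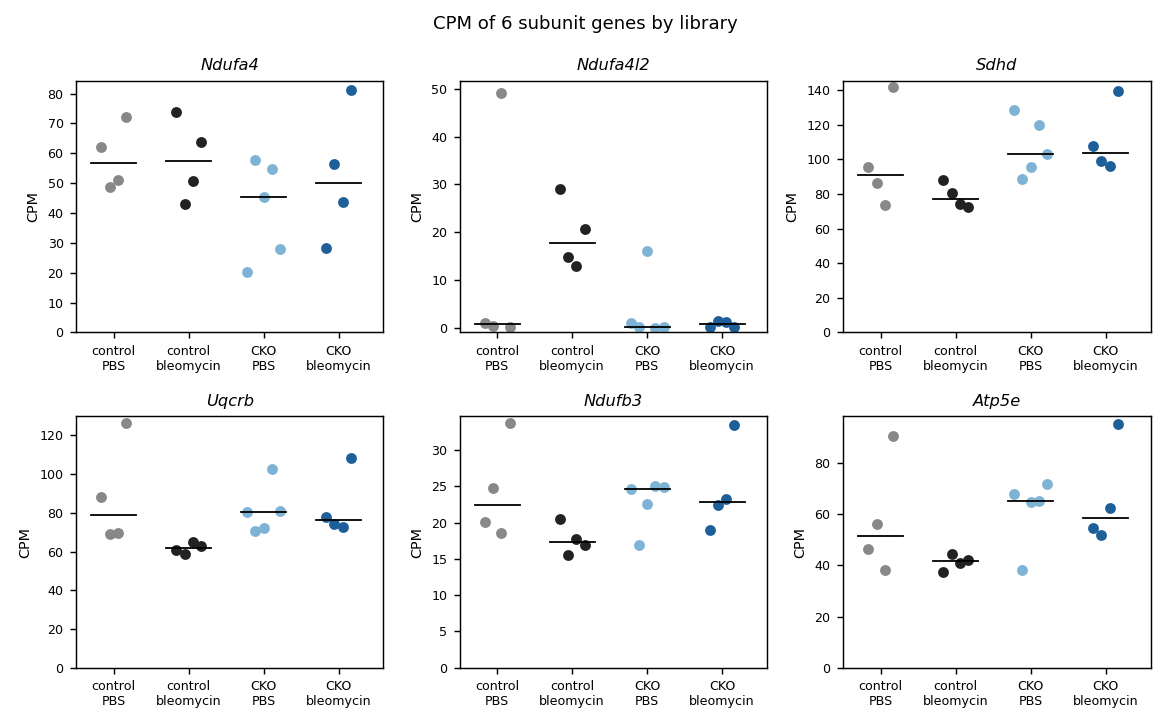
CPM of 6 subunit genes, 1 point per library, with the group median as a line. For Ndufa4l2, 6 libraries lie above 10 CPM and the other 11 at or below 1.35 CPM; for Atp5e, Sdhd and Uqcrb each CKO bleomycin library lies above each control bleomycin library.

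Ephb4 CKO versus control after PBS compared the genotypes without bleomycin. No member (smallest adjusted p 1 in edgeR) and 0% of all genes passed, and DESeq2 and limma voom called no member. Neither direction had a member at an unadjusted p under 0.05, beside 1.43% of all genes higher and 0.563% lower. Without control PBS library 4, 6 were higher, and 13 were without that library and CKO bleomycin library 4. No share over all genes is given for those fits. The fitted value was above 0 in 36 of 77 members, against 46.4% of all genes, with a median of -0.01 over the members and -0.02 over all genes. Here too single libraries set the count, which was 70 without control PBS library 4 (median 0.20) and 19 without control PBS library 3. With no TMM factor it was 9, with a median of -0.14 where the median of all genes was -0.168. The 95% interval lay within a 2-fold change in 74 of 76 members.

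Ndufa1, an X-linked accessory subunit of complex I, had the smallest p of the members with a positive value after PBS. It was at 23.2, 20.8, 19.1 and 36.4 CPM in control and 68.8, 23.1, 22.7, 29.7 and 32.2 CPM in CKO libraries, a log2 fold change of 0.50 (SE 0.31), and the groups overlapped. CKO PBS library 1 was the high library, and the value without it was 0.11. Cox8a, a small subunit of complex IV, had a value of 0.36 (SE 0.22), and on the other side Ndufa4 had -0.51 (SE 0.33) and Uqcrc2, a core protein of complex III, -0.18 (SE 0.17), which was -0.07 without control PBS library 4.

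Bleomycin versus PBS in Ephb4 CKO mice addressed the response to bleomycin where Ephb4 had been targeted. No member (smallest adjusted p 1 in edgeR) and 0% of all genes passed, DESeq2 and limma voom called no member, and at an unadjusted p under 0.05 there was no member in either direction, beside 0.248% of all genes higher and 0.716% lower. The value was above 0 in 50 of 77 members, against 44.2% of all genes, with a median of 0.03 over the members and -0.03 over all genes. The count was 9 without CKO bleomycin library 4, with a median of -0.12, and 32 without CKO PBS library 2. In 75 of 76 members the 95% interval lay within a 2-fold change. The members with the smallest p were Ndufa4 (0.35, SE 0.33) and Cox7a2l (0.17, SE 0.16) with positive values, and Ndufa4l2 (-2.33) and Ndufa1 (-0.27, SE 0.31) with negative values. The value of Ndufa4 was 0.05 without CKO bleomycin library 4. The value of Cox7a2l was 0.01 without CKO bleomycin library 2 and -0.05 without the 3 libraries that went against the recorded sex.

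The genotype by bleomycin interaction tested whether the bleomycin difference depended on Ephb4. No member (smallest adjusted p 0.916 in edgeR) and 0% of all genes passed, DESeq2 and limma voom called no member, and 0 members had an unadjusted p under 0.05, beside 3.46% of all genes. Without control PBS library 3, 4 members had a positive and 1 a negative value at that p, with no share over all genes given for that fit. The interaction was above 0 in 62 of 77 members, against 49.7% of all genes, with a median of 0.20 over the members and 0.00 over all genes. Without control PBS library 4 the count was 38 and the median 0.00, and without both that library and CKO bleomycin library 4, a choice made after the data were seen, they were 15 and -0.14. The fits of Sdhb (0.69, SE 0.39), Atp5e (0.59, SE 0.37), Ndufb3 (0.56, SE 0.29) and Uqcrb (0.55, SE 0.27) were positive. Without control PBS library 4 they were 0.34, 0.29, 0.36 and 0.32, and without both libraries 0.10, 0.06, 0.18 and 0.17.

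Of 10 subunits chosen to represent the complexes, 9 had positive values in CKO against control after bleomycin. After bleomycin, the fitted log2 fold changes of CKO against control were 0.15 (SE 0.22) for Ndufs1 and 0.21 (SE 0.20) for Ndufv1 of the NADH-oxidizing arm of complex I, 0.32 (SE 0.24) for Sdha, 0.53 (SE 0.29) for Sdhb, 0.32 (SE 0.23) for the complex III core protein Uqcrc1, 0.32 (SE 0.18) for the Rieske protein Uqcrfs1, 0.40 (SE 0.22) for Cox4i1 and 0.41 (SE 0.23) for Cox5a. The ATP synthase pair had values of 0.19 (Atp5a1, SE 0.23) and -0.06 (Atp5b, SE 0.22). Of the complex IV forms with tissue-restricted partners, Cox6a1 had a value of 0.07 (SE 0.21), Cox6b1 0.38 (SE 0.20), Cox7a2 0.53 (SE 0.31), Cox7a2l 0.16 (SE 0.17) and Cox8a 0.23 (SE 0.23). None passed the adjusted threshold in edgeR, where 0% of all genes did. The adjusted p of the 10 genes chosen to represent the complexes ran in edgeR from 0.289 for Sdhb to 0.893 for Atp5b.

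Genes that build, feed or regulate the complexes were read beside the members. Of 33 assembly factors tested (of 50 listed), CKO against control after bleomycin gave values above 0 in 23 with a median of 0.14, and 3 higher and 2 lower at an unadjusted p under 0.05, where 11% and 9.18% of all genes were, so that neither count of 33 exceeded the background. The largest of the latter was Ttc19, which acts on complex III, at -1.18 (SE 0.30, adjusted p 0.187 in edgeR), and among the former were Pet100 and Coa4, complex IV assembly factors, at 0.75 (SE 0.23) and 0.81 (SE 0.33). Of 13 electron carrier and ubiquinone synthesis genes, 9 were above 0 (median 0.13), with Etfa, a subunit of the electron transfer flavoprotein, at 0.65 (SE 0.28) and cytochrome c itself, Cycs, at 0.08 (SE 0.25). Of 13 citrate cycle genes 6 were above 0 (median -0.04), and of 9 regulators 3 (median -0.18), among them Nrf1 at -0.18 (SE 0.18) and Tfam, the mitochondrial DNA packaging factor, at 0.01 (SE 0.13). Ppargc1a and Ppargc1b did not pass the filter. No gene of these 4 lists passed the adjusted threshold in edgeR in any of the 5 comparisons, where 0% of all genes did.

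The 13 subunits that mitochondrial DNA encodes were set beside the nuclear ones. Their mean log2 CPM ran from 7.09 to 8.83 over the libraries, a wider span than the 5.57 to 6.37 of the 76 nuclear members. In CKO against control after bleomycin 12 of 13 had fitted values below 0 (median -0.26), where 65 of 77 nuclear members were above 0, and after bleomycin in control mice 11 of 13 were above 0 (median 0.19), where 61 of 77 nuclear members were below. In the other comparisons all 13 were above 0 in CKO against control after PBS (median 0.24) and all 13 below 0 after bleomycin in CKO mice (median -0.36). None was called in edgeR, where 0% of all genes were, and the difference between the sets was not tested. Cytosolic ribosomal protein genes, another abundant set, had 68 of 79 values below 0 in CKO against control after bleomycin (median -0.22) and 78 of 79 after PBS (median -0.25). In CKO against control after bleomycin, mitochondrial ribosomal protein genes had 54 of 78 values above 0 (median 0.09) and proteasome subunits 19 of 37 (median 0.02).

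Promoter sequence was examined because most members were high or low in the same libraries, a pattern that some other gene lists shared. RefSeq windows (GRCm38.p6) from 250 bases before to 50 after the start were found for 63 of 77 members, as 68 windows. The windows of Atp5e, Sdhd and Ndufb3, the members with a positive value and the smallest p in CKO against control after bleomycin, are shown, with capitals at matches on either strand to NRF1 (12-base consensus), the ETS core CCGGAAG, SP1 GGGCGG, YY1 AAGATGGC, ERR TCAAGGTCA, the E-box CACGTG and NFY CCAAT. Atp5e lies at chr2:174464052-174464351 (minus strand), Sdhd at chr9:50603800-50604099 (minus strand) and Ndufb3 at chr1:58586147-58586446 (plus strand).
Atp5e: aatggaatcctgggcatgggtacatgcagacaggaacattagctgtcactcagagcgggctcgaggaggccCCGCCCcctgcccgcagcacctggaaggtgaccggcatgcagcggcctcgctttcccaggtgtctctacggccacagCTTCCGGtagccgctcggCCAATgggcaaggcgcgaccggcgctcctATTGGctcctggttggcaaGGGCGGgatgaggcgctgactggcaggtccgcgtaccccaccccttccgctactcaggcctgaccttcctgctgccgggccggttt
Sdhd: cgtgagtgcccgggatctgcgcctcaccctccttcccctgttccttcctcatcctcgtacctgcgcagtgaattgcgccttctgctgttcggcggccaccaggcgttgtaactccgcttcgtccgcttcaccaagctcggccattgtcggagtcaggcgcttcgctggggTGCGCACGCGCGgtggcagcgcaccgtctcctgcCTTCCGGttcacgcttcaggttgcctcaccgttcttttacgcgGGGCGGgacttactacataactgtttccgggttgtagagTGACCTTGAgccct
Ndufb3: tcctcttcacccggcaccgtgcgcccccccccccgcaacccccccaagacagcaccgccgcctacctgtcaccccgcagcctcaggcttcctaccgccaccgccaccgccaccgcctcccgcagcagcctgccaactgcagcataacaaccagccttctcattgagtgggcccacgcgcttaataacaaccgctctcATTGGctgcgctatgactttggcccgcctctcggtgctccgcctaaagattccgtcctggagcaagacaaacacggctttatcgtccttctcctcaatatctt
Atp5e held ETS, SP1 and NFY matches, Sdhd held NRF1, ETS, SP1 and ERR matches, and Ndufb3 held a single NFY match. The NRF1 consensus was in 7 of 68 member windows (10.3%), in 2.94% of the windows of genes that passed the filter and in 1.27% of all 32851 windows. The ETS core was in 25% of member windows against 17.8% and 8.86%, and YY1 in 13.2% against 4.43% and 2.75%. ERR was in only 2 of 68 member windows (2.94%), against 0.213% and 0.423%. SP1 was in 38.2% of member windows, fewer than the 63.6% of genes that passed the filter and close to the 35.7% of all windows. The E-box was in 8.82% of member windows (10.2% and 7.15%) and NFY in 41.2% (37.1% and 37.4%). By complex, YY1 matches were in 7 of 33 complex I windows and in none of the 10 complex IV windows, and the NRF1 consensus was in 3 of 33 complex I, 1 of 3 complex II, 1 of 5 complex III, 0 of 10 complex IV and 2 of 17 complex V windows. These matches describe letters in a window and were not compared by a test.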

How the data were processed

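Total RNA-Seq libraries of 17 cultures were grouped by genotype and instillation as the labels give them. The authors trimmed reads with cutadapt 1.18, aligned them to GRCm38 with HISAT2 2.1.0, and derived the deposited whole-number counts per gene with StringTie, from coverage, transcript length and the 75-base read length. The counts were not normalized. Coverage is divided between overlapping transcripts, so the counts of Atp5o (a second identifier, at most 2.75 CPM), Atp5g2, Ndufb2, Ndufb8 and Ndufb9, which share exon bases on the same strand with another gene, are less certain. The sequencing batch of each library was not given in the sources used here, so the batch term of the study's model was left out.

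CPM used TMM library sizes, and log2 CPM a prior count of 2. Genes above 10 CPM of the library total in at least 2 libraries were fitted in edgeR 4.0.16 (R 4.3.3) by quasi-likelihood, with 1 mean per group over 17 libraries, adjustment after Benjamini and Hochberg over 10481 genes, and a threshold of 0.05. The common dispersion was 0.311. The SE is the log2 fold change divided by the root of its F statistic, and intervals are ± 2.16 SE, from 13 residual degrees of freedom. Depth was 66540022 to 120554468 counts per library. Marker and score levels are means of log2 CPM. The members and all lists were chosen with earlier results of these data known. Named genes were subunits chosen to represent the complexes, isoform subunits, and the highest and lowest per kb. The 2 members with the smallest p in each direction of each pairwise comparison were named too. Others, such as Ndufv3, members without overlap between groups, and the assembly, carrier and regulator genes, were chosen once values were known. The scripts were checked on simulated counts. Of the gene identifiers, 55154 were in GENCODE M21. Alternatives were DESeq2 1.42.0 and limma 3.58.1 (voom), other normalizations, filters and samples, and covariates. Sequences were taken from RefSeq (promoters) and GENCODE (coding sequences).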

Additional observations from a re-analysis of the deposited data

Results flagged for a closer look

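In 13 of 128 groups examined (32 values in 4 groups each), 1 library lay farther from its group than Dixon's 95% critical value allows. Chance alone flags about 1 in 20 independent groups. The 128 were not independent, since most members were high or low in the same libraries and the means are made of members. That rate therefore cannot judge the count of 13. CKO bleomycin library 4 was the high library for Atp5a1 (9.55 log2 CPM, next 8.97), Atp5b (9.83, next 9.33), Cox7a2 (6.96, next 6.18), the complex I mean (5.65, next 5.21) and the complex II mean (7.20, next 6.57). Control PBS library 4 was the high library for Ndufb2 (4.77, next 3.89) and the complex V mean (7.0, next 6.39). Control bleomycin library 1 was high for Ndufv1 (5.89, next 5.63) and Atp5a1 (9.23, next 8.84), and CKO PBS library 4 for Atp5b (9.63, next 9.37). CKO PBS library 2 was the low library for Ndufb3 (4.08, next 4.50), Atp5e (5.25, next 6.02) and the mean over all 77 subunits (5.56, next 5.84). The last of these includes Ndufa4l2, which was at 0.102 CPM there. Without that gene the mean of CKO PBS library 2 was 5.67 (next 5.88), which was not among the values examined. That library had the largest share of counts in 5 abundant non-coding genes, 20.1%, where the other libraries ran from 6.72% to 14.8%; its part in these values was not tested.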

How the results depend on the processing

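No member was called under any of 18 alternatives or when any of the 17 libraries was left out. Most of these fits called no gene at all, so there the absence of members does not set them apart. The main edgeR fit and limma voom called 0 of all genes in every comparison. DESeq2 called 166 in bleomycin against PBS in control mice and 399 in CKO against control after bleomycin. In each other comparison it called at most 1. The direction of the members was less stable. The numbers above 0 below are given without the share of all genes in the same fit. They therefore do not separate a shift of the members from a shift of all genes. These alternatives were chosen after seeing the data: leaving out the highest pair of libraries (control PBS 4 and CKO bleomycin 4), leaving out the pair with the lowest macrophage level (control PBS 3 and control bleomycin 1), and no TMM factor. The cause of the changes below was not tested.

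For bleomycin against PBS in control mice, the median log2 fold change of the members was 0.165 with the fibroblast covariate and 0.089 with no TMM factor. The number of members above 0 was 37 with a covariate for the number series of the titles (11 or 12), 35 within series 12, 68 with the fibroblast covariate, 42 without the highest pair, 3 without the pair lowest in macrophage markers and 53 with no TMM factor, and ran from 9 to 42 leaving out 1 library. For CKO against control after bleomycin, the median was -0.0832 with the fibroblast covariate and -0.0385 with no TMM factor, and the number above 0 was 20 and 30. For CKO against control after PBS, the median was 0.204 without the highest pair and ran from -0.0772 to 0.204 leaving out 1 library. The number above 0 there was 57 with sex as a covariate, 58 within series 12, 70 without the highest pair, 19 without the pair lowest in macrophage markers and 9 with no TMM factor, and ran from 19 to 70. For bleomycin against PBS in CKO mice the number was 28 within series 12 and 9 without the highest pair, and ran from 9 to 63. For the interaction, the median was -0.0452 within series 12, -0.0823 with the fibroblast covariate and -0.139 without the highest pair, with 34, 20 and 15 members above 0, and the number ran from 38 to 65 leaving out 1 library.

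Of the named log2 fold changes, Atp5o in CKO against control after bleomycin became 0.019 with the macrophage covariate. In bleomycin against PBS in CKO mice, Cox7a2l became -0.0469 without the libraries against the recorded sex, Ndufa1 became 0.0834 within series 11 and ran from -0.423 to 0.124 leaving out 1 library, and Ndufa4l2 became 0.338 with limma voom and 0.558 within series 12 and ran from -2.91 to 1.11. With the fibroblast covariate Ndufa4l2 became 0.0859 in CKO against control after bleomycin and 0.752 in the interaction, where it ran from -7.63 to 0.512 leaving out 1 library. DESeq2 called 166 and 399 genes where edgeR called 0, in bleomycin against PBS in control mice and CKO against control after bleomycin. Series 11 held no control bleomycin library, so 3 comparisons could not be fitted there. Series 12 held 1 control PBS library, which was assumed to vary like the other groups. No paired analysis was possible because replicate numbers were given in accession order, and the 2 title numbers that occur in 2 libraries each (CKO bleomycin 2 with control PBS 1, and control bleomycin 2 with CKO PBS 2) join groups that no pairwise comparison sets against each other. With a median SE near 0.20, changes well under 2-fold could not be shown at this spread.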
